A study of Homo sapiens with 18 samples.

Results

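LNCaP is a human prostate cancer line that responds to androgens. Here, LNCaP cells transfected with the second of a pair of small interfering RNAs (siRNAs) against PARP2, labelled siPARP2-B, were compared with cells transfected with a control siRNA, labelled siNC. Each group had 2 biological replicate libraries, collected 72 hours after transfection, so the comparison used 4 of the 18 libraries of the series. It covered the 12701 genes, of 18350 features in the siRNA table, whose mean over the table was at least 1 normalised read per M. The medium of all groups was RPMI with fetal bovine serum at 10%. The other groups of the same table, with 2 libraries each, were LNCaP cells given siPARP2-A, the other siRNA against PARP2, and siPARP1-B or siPARP1-A, both against PARP1. Total RNA of this single line was sequenced. The sequences of the siRNAs were not analysed here. Unless another group is named, a signed number beside a gene is its log2 fold change of siPARP2-B over siNC, ± gives its standard error, and values are in normalised reads per M (reads per M of a scaled library size).

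PARP1 and PARP2 are nuclear enzymes that bind DNA breaks and attach chains of ADP-ribose to proteins, which recruits repair factors. PARP2 has also been studied as a partner of the pioneer factor FOXA1 in prostate cancer cells. Double-stranded RNA in the cytoplasm is sensed by RIG-I (DDX58 in the file), MDA5 (IFIH1) and the OAS enzymes, and in endosomes by TLR3. These sensors switch on interferons, which act through STAT factors and IRF9 on interferon-stimulated genes. Many such genes carry an interferon-stimulated response element (ISRE) in their promoters, while many S-phase genes carry sites for E2F factors.

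The siPARP2-B libraries held 16.22 and 17.43 M recovered reads and the siNC libraries 17.18 and 18.62 M reads, and the 10 libraries ranged between 15.45 and 18.62 M reads. A single read was worth between 0.0564 and 0.0691 normalised reads per M, depending on the library. Over the tested genes, the siPARP2-B libraries correlated with each other at 0.996 on the log2 scale and with the siNC libraries at 0.938 to 0.941. The siNC libraries correlated with those of the other 3 PARP siRNAs at 0.970 to 0.985. Transcripts of the mitochondrial genome took 3.77% and 4.77% of the siPARP2-B values and 5.28% and 3.96% of the siNC values. The labelled cell line was checked against luminal prostate markers, of which KLK3, KRT8, KRT18, FOLH1 and HOXB13 were all above 100 normalised reads per M in each of the 10 libraries.

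Between siPARP2-B and siNC, 8390 of the 12701 genes (66.1%) differed at an adjusted p below 0.05 in limma's moderated test. Of these, 3924 (30.9%) were higher and 4466 (35.2%) were lower in siPARP2-B cells. Counts in the gene lists below are read against these shares. At least 2-fold changes were called for 673 higher genes (5.30%) and 1004 lower genes (7.90%), and at least 4-fold changes for 135 higher and 183 lower genes. Fold changes are on the log2(value + 1) scale, which understates changes of genes with low values. The median log2 fold change over all tested genes was -0.03. Scaling by plain reads per M moved that median up by 0.15 and the share of higher genes among the calls to 61.3%, against 46.8% with the deposited scaling, so small changes are read relative to the scaling. It also turned the split of at least 2-fold changes, to 896 higher and 750 lower genes. The siPARP2-B and siNC libraries did not overlap for 80.8% of the tested genes, so a lack of overlap was common, and the rule that named the highest and lowest fold changes required it. Both siPARP2-B libraries lay above the other 8 for 2773 genes (21.8%) and below the other 8 for 2993 (23.6%). Being the highest or lowest group was thus also common. The at least 2-fold higher genes were often low in level. The filter and these levels use the mean over all 10 libraries, siPARP2-B included. A gene near 0 elsewhere could thus pass through high siPARP2-B values alone, which adds rises at low levels. The part of this in the shares given next was not tested. Of the 2619 genes with a mean of 1 to 5, 9.05% were at least 2-fold higher and 4.16% at least 2-fold lower, while of the 4310 genes with a mean of 50 or more, 2.48% were higher and 9.77% lower by that much.

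**Figure D1:**
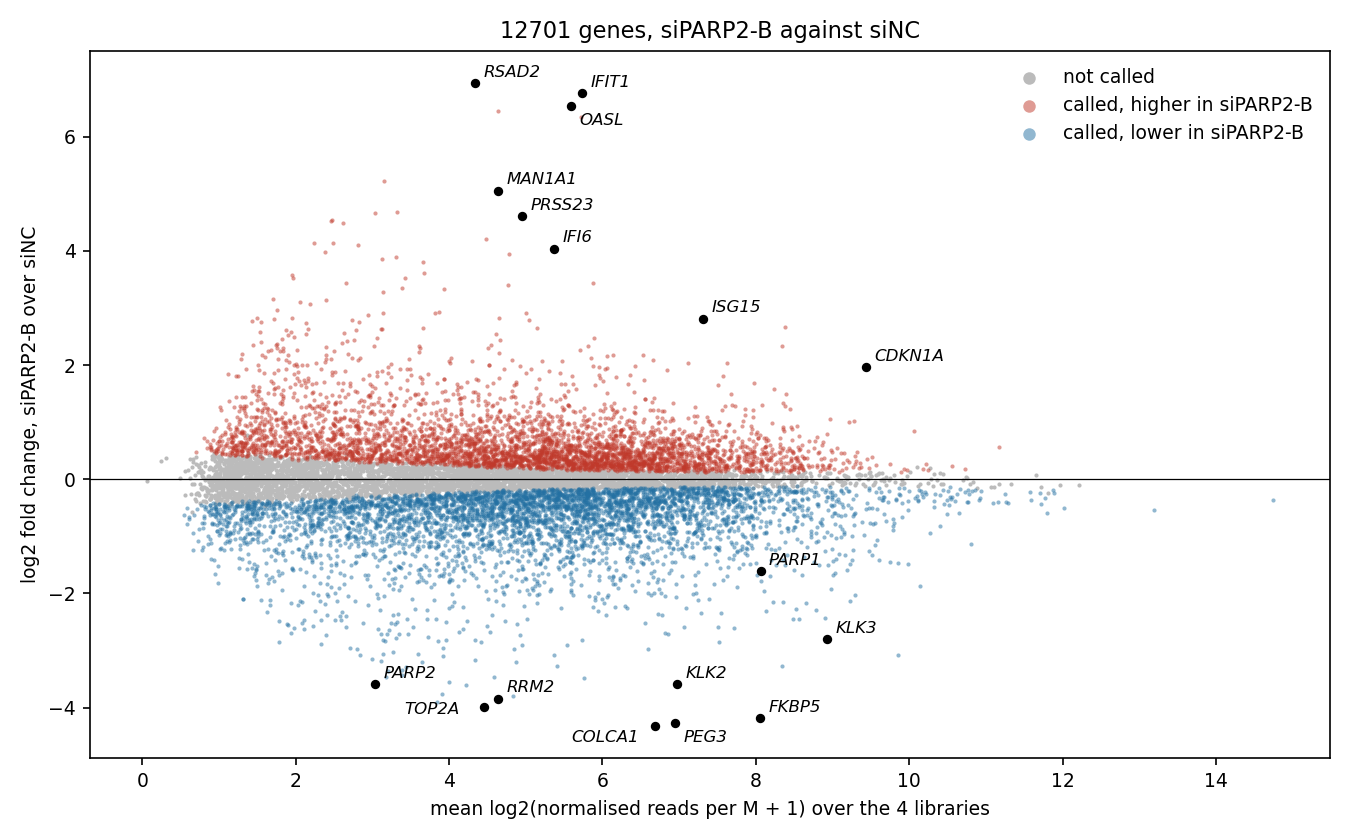
Each point is a gene, with the mean log2(normalised reads per M + 1) over the 2 siPARP2-B and 2 siNC libraries on the x axis and the log2 fold change of siPARP2-B over siNC on the y axis. Called genes are red where higher and blue where lower in siPARP2-B, and grey genes were not called. The genes above 6 log2 units are RSAD2, IFIT1, OASL, IFIT3 and IFIT2, and the labelled genes at the bottom include COLCA1, PEG3, FKBP5 and TOP2A.

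The targeted transcript was measured first. PARP2 was at 1.78 and 1.01 normalised reads per M in siPARP2-B cells, 3.06 and 2.56 in siPARP2-A, 19.8 and 18 in siPARP1-B, 22.1 and 20.9 in siPARP1-A and 29 and 25.8 in siNC cells. Both PARP2 siRNAs gave low values, and the siPARP2-B values lay below every other library, on 30 and 18 reads against 446 and 450 in siNC. The log2 fold change over siNC was -3.58 ± 0.14 (SE, adjusted p = 2.4e-17), and siPARP2-B was also below siPARP2-A (-0.68, adjusted p = 0.00012).

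PARP1 was lowered as well. Its values were 160.5 and 145 in siPARP2-B cells, 409 and 395 in siPARP2-A, 8.99 and 9.05 in siPARP1-B, 4.78 and 5.67 in siPARP1-A and 452 and 479 in siNC cells. The siPARP2-B values thus lay apart from siPARP2-A and siNC, which were near each other, and well above those of the PARP1 siRNAs. The log2 fold change was -1.6 ± 0.07 over siNC (adjusted p = 7.7e-16) and -1.39 ± 0.07 over siPARP2-A (adjusted p = 1.5e-14). Transcripts of both enzymes were thus lower in siPARP2-B than in siNC cells.

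**Figure D2:**
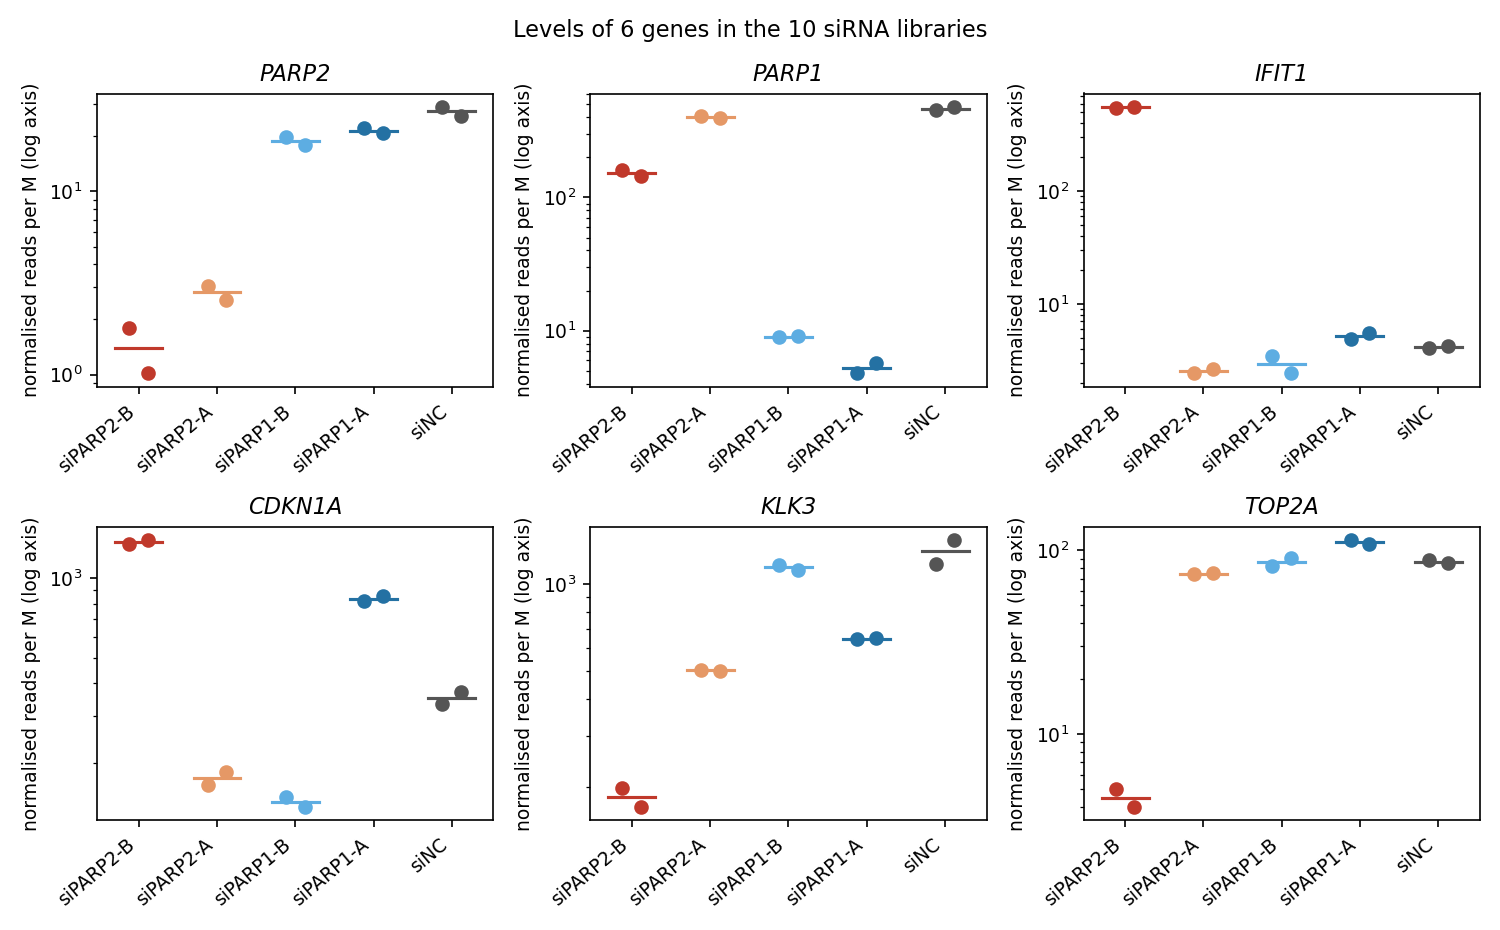
Values of 6 genes in all 10 libraries, in normalised reads per M on log axes; each point is a library and each bar the mean of a group of 2. siPARP2-B cells were lowest for PARP2, KLK3 and TOP2A and highest for IFIT1 and CDKN1A, and lay between the PARP1 siRNAs and the other groups for PARP1.

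Among the 20 tested genes for PARP enzymes and for enzymes that remove ADP-ribose, 10 rose and 6 fell, with a median log2 fold change of 0.15. Over all genes, 30.9% were higher and 35.2% lower. PARP8, a mono-ADP-ribosyltransferase, was at 24.7 and 24.8 in siPARP2-B cells and 7.4 and 6.6 in siNC cells (1.69 ± 0.12, adjusted p = 2.6e-12). The interferon-inducible PARP12 was at 34.4 and 38.5 in siPARP2-B cells and 13.5 and 15 in siNC cells (1.3 ± 0.10, adjusted p = 2.1e-11). Neither gene's groups overlapped. PARP14, another interferon-inducible member, differed more from siPARP2-A than from siNC: it was at 5.35 and 5.35 in siPARP2-B cells, 0.612 and 0.625 in siPARP2-A and 4.09 and 3.33 in siNC cells, with log2 fold changes of 1.97 (adjusted p = 2.7e-11) and 0.44 (adjusted p = 0.015). The PARP14 call over siNC was lost without siPARP2-B replicate 1 (adjusted p = 0.054), siPARP2-B replicate 2 (0.055) or siNC replicate 2 (0.14). PARP9 was called (0.17), but not without siPARP2-B replicate 1 (adjusted p = 0.26) or siNC replicate 2 (0.25), nor without either siPARP1-A library (both 0.051). Smaller rises were called for PARP4, the tankyrase TNKS and the zinc-finger antiviral protein ZC3HAV1 (0.53, 0.45 and 0.18). Falls were called for PARP11, the tankyrase TNKS2, PARP16 and MACROD1 (-0.83, -0.52, -0.46 and -0.29). The MACROD1 call was lost under plain reads per M (adjusted p = 0.22), with DESeq2 (0.064), without siPARP2-B replicate 1 (0.051) and without siNC replicate 2 (0.069). PARP3, PARG, TIPARP and PARP10 did not pass the test.

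Interferon-stimulated genes made up the strongest rise. Promoters of 5 of them are shown because all rose at least 7-fold and hold the core of the ISRE, spelled GAAANNGAAA, or TTTCNNTTTC on the other strand. Each is the 250 bases before the RefSeq transcription start on GRCh38.p14, read 5′ to 3′ on the gene's strand, with matches in capitals. Matches can share bases, as both do in ISG15. The stretches lie at chr2:6877527-6877776 (plus strand) for RSAD2, chr10:89392373-89392622 (plus) for IFIT1, chr10:89327747-89327996 (plus) for IFIT3, chr1:27672193-27672442 (minus) for IFI6 and chr1:1013247-1013496 (plus) for ISG15.
RSAD2: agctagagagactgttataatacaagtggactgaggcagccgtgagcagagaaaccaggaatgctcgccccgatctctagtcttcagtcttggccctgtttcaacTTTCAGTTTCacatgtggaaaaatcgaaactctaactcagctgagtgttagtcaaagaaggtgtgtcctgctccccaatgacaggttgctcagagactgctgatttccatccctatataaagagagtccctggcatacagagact
IFIT1: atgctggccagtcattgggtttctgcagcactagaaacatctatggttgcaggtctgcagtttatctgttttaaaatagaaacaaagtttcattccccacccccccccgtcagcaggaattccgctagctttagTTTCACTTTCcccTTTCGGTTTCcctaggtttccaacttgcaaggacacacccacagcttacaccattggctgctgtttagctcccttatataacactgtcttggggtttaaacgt
IFIT3: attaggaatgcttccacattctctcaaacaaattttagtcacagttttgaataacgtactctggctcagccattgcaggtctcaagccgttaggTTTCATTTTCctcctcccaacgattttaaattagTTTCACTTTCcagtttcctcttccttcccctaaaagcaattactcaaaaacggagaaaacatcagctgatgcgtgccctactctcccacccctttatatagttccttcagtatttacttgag
IFI6: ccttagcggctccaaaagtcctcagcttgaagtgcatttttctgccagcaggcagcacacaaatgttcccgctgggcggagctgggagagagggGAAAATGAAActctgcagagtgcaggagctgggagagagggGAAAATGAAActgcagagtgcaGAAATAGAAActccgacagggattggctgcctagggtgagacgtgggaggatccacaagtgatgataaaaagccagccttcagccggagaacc
ISG15: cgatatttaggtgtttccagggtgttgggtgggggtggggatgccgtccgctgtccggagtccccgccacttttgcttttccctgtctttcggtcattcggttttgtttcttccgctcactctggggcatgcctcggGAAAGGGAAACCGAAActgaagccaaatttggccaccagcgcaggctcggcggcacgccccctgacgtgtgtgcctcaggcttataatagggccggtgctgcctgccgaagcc

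The motif occurred in the promoter window of 22 of the 30 tested interferon-stimulated effectors with an entry in the promoter table (73.3%), against 3.71% of all 27305 genes of the promoter table and 3.30% of the 9294 tested genes with a promoter. It was present in 35 of 497 genes at least 2-fold higher (7.04%) and in 26 of 738 at least 2-fold lower (3.52%). The 35 genes include effectors already counted above, so these counts overlap. Among them are RSAD2, IFIT1, IFIT3, IFIT5, IFI6, IFI27, IFI44, IFITM3, ISG15 and ISG20. BST2, HERC5, SAMD9, DDX60, DDX60L, PLSCR1, CXCL10 and GBP1 are also included. Much of the 7.04% thus came from the effectors, and it does not describe the other higher genes. The share among those was not computed. MX1, EPSTI1 and TRIM14 had a match and did not pass the test. Class I antigen presentation genes, with a median log2 fold change of 0.03, held a match in 8 of 16 promoters (50%). Double-stranded RNA sensors and OAS enzymes, with a median of 1.5, held one in 2 of 9 (22.2%). A match is a description of the sequence and not a measured binding site.

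Of the 16 tested genes for double-stranded RNA sensors, OAS enzymes and their signalling partners, 13 rose, none fell, and the median log2 fold change was 1.5; 9 rose at least 2-fold. OASL, an OAS-like protein that enhances RIG-I signalling, was at 445 and 484 in siPARP2-B cells and 3.64 and 4.42 in siNC cells (6.54 ± 0.15, adjusted p = 1.1e-21). OAS1, an oligoadenylate synthetase, was at 48.7 and 50.5 in siPARP2-B cells and 0.909 and 1.03 in siNC cells (4.68 ± 0.15). OAS2 was at 26.1 and 25.5 in siPARP2-B cells and 0.130 and 0.172 in siNC cells, where it rested on 2 and 3 reads. None of these groups overlapped, as the rule that named these genes required. DDX58, which encodes RIG-I, was at 85.6 and 89.7 in siPARP2-B cells and 7.73 and 7.01 in siNC cells (3.41 ± 0.12). TLR3, the endosomal sensor, was at 14.3 and 15.3 in siPARP2-B cells and 2.27 and 1.61 in siNC cells (2.44 ± 0.16). IFIH1, which encodes MDA5, was at 43.2 and 46.5 in siPARP2-B cells and 11 and 9.88 in siNC cells (2.0 ± 0.12). The siPARP2-B values of these sensors were several-fold those of siNC in both libraries. DHX58, IRF7 and OAS3 rose (2.24, 1.38 and 0.95), and IRF3, the kinase PKR (EIF2AK2) and ADAR, which edits double-stranded RNA, rose less (0.59, 0.35 and 0.29); the PKR call was lost without siPARP2-B replicate 2 (adjusted p = 0.054). The adaptors MAVS and TICAM1 and the kinase TBK1, which relay the sensors' signal, did not pass the test (-0.13, -0.32 and 0.07); without siPARP2-B replicate 2, 2 genes of this list were called lower.

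Of 13 tested genes for interferon receptors, JAK kinases, STATs and their regulators, 7 rose and 2 fell, with a median of 0.41. Over all genes, 30.9% were higher and 35.2% lower. The transcription factor IRF1 was at 11.1 and 10.5 in siPARP2-B cells and 2.99 and 2.35 in siNC cells (1.69 ± 0.16, adjusted p = 1e-09). STAT2 was at 57.2 and 58.9 in siPARP2-B cells and 18.8 and 22.6 in siNC cells (1.45 ± 0.09). The groups did not overlap for either gene. IFNGR2, JAK2, the feedback protease USP18 and IFNAR1 rose (0.63, 0.59, 0.56 and 0.41). The receptor chains IL10RB (-0.87) and IFNGR1 (-0.34) fell, IFNGR1 not under plain reads per M (adjusted p = 0.058), and JAK1, TYK2, IFNAR2 and IRF2 did not pass the test. IRF9, SOCS1 and IFNLR1 were below the filter on low values. The interferon genes of this list, IFNB1, IFNA1, IFNE, IFNL1, IFNL2 and IFNL3, were absent from the siRNA table, so none of them was measured.

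The effectors are the proteins that carry out the antiviral state. Of the 35 tested, 30 rose, 26 of them at least 2-fold, and 1 fell, the RIG-I ubiquitin ligase TRIM25 (-0.59); the median was 1.91. RSAD2 (viperin) was at 223 and 223 in siPARP2-B cells and 0.844 and 0.804 in siNC cells (6.94 ± 0.14, adjusted p = 1.4e-22). IFIT1, which binds foreign RNA caps, was at 547 and 561 in siPARP2-B cells, 2.45 and 2.63 in siPARP2-A, 3.46 and 2.42 in siPARP1-B, 4.84 and 5.54 in siPARP1-A and 4.09 and 4.19 in siNC cells (6.75 ± 0.12, adjusted p = 2e-23). The high values were found in the siPARP2-B libraries alone. IFIT2 was at 466 and 480.1 in siPARP2-B cells and 5.13 and 4.54 in siNC cells (6.35 ± 0.13), and IFIT3 at 224 and 239 in siPARP2-B cells and 1.49 and 1.84 in siNC cells (6.45 ± 0.18). ISG15, a ubiquitin-like modifier, was at 408 and 433 in siPARP2-B cells and 57.1 and 61.1 in siNC cells (2.81 ± 0.07). Both siPARP2-B libraries were again the high ones. IFI6 was at 158 and 177 in siPARP2-B cells and 8.9 and 9.59 in siNC cells (4.04 ± 0.11).

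The chemokine CXCL10, which attracts T cells, was at 11.8 and 12.8 in siPARP2-B cells and 0.130 and 0.172 in siNC cells (3.53 ± 0.18, adjusted p = 6e-15). CXCL11, which shares its receptor, was at 19.2 and 20.5 in siPARP2-B cells and 0.195 and 0.459 in siNC cells (3.98 ± 0.18). SAMD9, IFI27, IFI44, DDX60 and CMPK2 rose (3.8, 3.11, 2.92, 2.91 and 2.64). HERC5, the ligase that attaches ISG15, rose (2.3), as did the virus-tethering protein BST2 (2.1) and the exonuclease ISG20 (1.94). The response did not include every member: MX1, a GTPase often used as an interferon marker, was at 1.78 and 2.31 in siPARP2-B cells and 1.62 and 1.38 in siNC cells (0.28, adjusted p = 0.18), and EPSTI1, IFITM2 and TRIM14 were likewise not called. IFI44L, IFITM1 and MX2 were below the filter on low values.

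**Figure D3:**
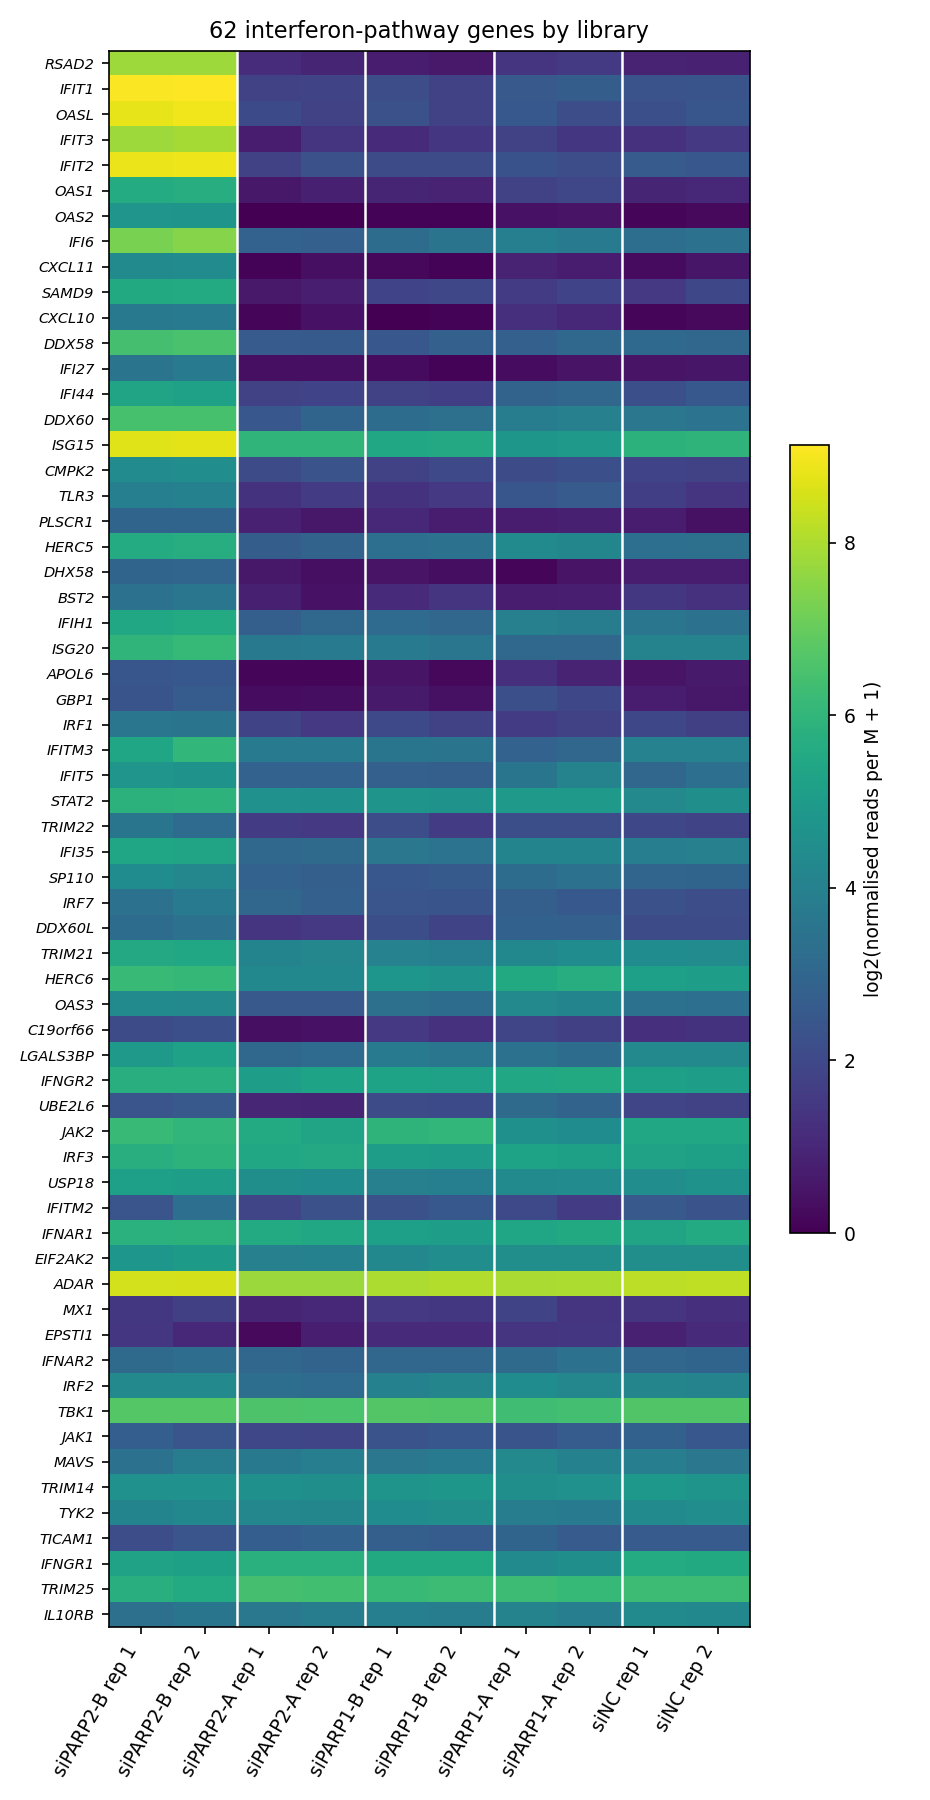
Heat map of log2(normalised reads per M + 1) for 62 tested interferon-pathway genes (rows, ordered by log2 fold change over siNC) in the 10 libraries (columns). The first 2 columns, siPARP2-B, are brightest in the upper rows, where the other 8 libraries are dark, for example RSAD2, IFIT1 and OASL; the lower rows, such as TBK1 and MAVS, vary little.

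Of 20 tested genes of class I antigen presentation, 7 rose and 6 fell, with a median of 0.03. These counts are near the shares over all genes, 30.9% higher and 35.2% lower. The immunoproteasome subunits PSMB10, PSMB8 and PSMB9 rose (1.46, 1.32 and 1.23), as did the class I regulator NLRC5 (0.87). PSMB10 was at 11.2 and 12.5 in siPARP2-B cells and 3.25 and 4.08 in siNC cells. Calnexin (CANX), a folding chaperone of class I chains, was at 470.2 and 446 in siPARP2-B cells and 1148 and 1054 in siNC cells (-1.26 ± 0.06), and PDIA3 fell (-0.88). HLA-B, HLA-C, TAP1 and TAPBP did not pass the test; HLA genes share sequence, so reads could be split between them. Under plain reads per M the split in this list became 12 higher and 3 lower. Among 8 tested NF-kB targets 4 rose and 1 fell; 2 rose without siNC replicate 1, and 2 fell without siPARP2-B replicate 2. The apoptosis inhibitor BIRC3 was at 43.8 and 43.2 in siPARP2-B cells and 3.117 and 2.24 in siNC cells (3.61 ± 0.15), NFKB1 rose (1.22), and the inhibitor NFKBIA fell (-0.93).

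Mitotic genes fell together. All 32 tested genes of mitosis and G2/M were at least 2-fold lower in siPARP2-B cells, with a median log2 fold change of -2.53. TOP2A, the topoisomerase that untangles replicated chromosomes, was at 5.0 and 4.0 in siPARP2-B cells, 73.7 and 74.8 in siPARP2-A, 81.6 and 91.1 in siPARP1-B, 113 and 108 in siPARP1-A and 87.9 and 84.9 in siNC cells (-4.0 ± 0.08 over siNC, adjusted p = 1.3e-22). Only the siPARP2-B libraries were below 10. The contractile ring protein ANLN was at 5.17 and 3.61 in siPARP2-B cells and 67.9 and 59.9 in siNC cells (-3.6 ± 0.10). NUSAP1, a spindle protein, was at 6.19 and 6.26 in siPARP2-B cells and 79.1 and 78.7 in siNC cells (-3.47 ± 0.07). No library of siPARP2-B reached the lowest siNC library for these genes, as the rule that named them required. CCNA2 (cyclin A2), BIRC5 (survivin) and the kinesin KIF20A fell (-3.1, -3.06 and -3.03). In bulk RNA, fewer cycling cells and less of the transcript in each cell cannot be told apart.

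Of 39 tested genes of DNA replication and S phase, 37 fell and none rose, 26 of them at least 2-fold, with a median of -1.2. RRM2, the ribonucleotide reductase subunit that supplies deoxynucleotides, was at 6.01 and 5.18 in siPARP2-B cells and 96.8 and 89.8 in siNC cells (-3.84 ± 0.08, adjusted p = 9.5e-23). MCM10, needed to start replication forks, was at 2.5 and 2.09 in siPARP2-B cells and 32.5 and 32.2 in siNC cells (-3.34 ± 0.09). CDC6, which loads the MCM helicase, was at 10.2 and 7.33 in siPARP2-B cells and 85.9 and 90.3 in siNC cells (-3.2 ± 0.09). In each case the siPARP2-B values were a small part of the siNC values. E2F1, the transcription factor that drives S-phase genes, was at 4.64 and 4.23 in siPARP2-B cells and 38.7 and 43.8 in siNC cells (-2.96 ± 0.09). CDC45 and TK1 fell (-2.96 and -2.73). POLD3 and LIG1 did not pass the test.

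Promoter windows of E2F1 and of GINS2, part of the replicative helicase (15 and 14.1 in siPARP2-B cells and 41.9 and 40.9 in siNC cells, -1.44 ± 0.08), are shown because both genes fell and hold an E2F word. The words searched were TTTCCCGC and TTTGGCGC, or GCGGGAAA and GCGCCAAA on the other strand; matches are in capitals and the layout is that of the promoters above. The stretches lie on the minus strand at chr20:33686386-33686635 for E2F1 and chr16:85688955-85689204 for GINS2.
E2F1: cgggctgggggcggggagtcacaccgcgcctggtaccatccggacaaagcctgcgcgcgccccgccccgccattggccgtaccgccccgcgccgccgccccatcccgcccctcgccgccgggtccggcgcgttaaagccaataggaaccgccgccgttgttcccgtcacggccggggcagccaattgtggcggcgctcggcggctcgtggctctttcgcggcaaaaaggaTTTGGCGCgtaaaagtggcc
GINS2: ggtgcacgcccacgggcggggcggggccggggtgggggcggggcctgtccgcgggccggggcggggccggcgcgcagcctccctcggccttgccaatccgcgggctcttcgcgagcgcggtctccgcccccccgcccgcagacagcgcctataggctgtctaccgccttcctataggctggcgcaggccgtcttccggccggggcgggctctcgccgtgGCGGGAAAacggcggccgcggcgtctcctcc

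Such a word was present in 12 of 33 replication genes with an entry in the promoter table (36.4%), in 2 of 26 mitotic genes (7.69%), and in 4.06% of tested genes and 2.36% of all genes of the promoter table. It occurred in 48 of 738 genes at least 2-fold lower (6.50%) and 17 of 497 at least 2-fold higher (3.42%).

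DNA repair genes were read as 2 lists. Of 32 homologous recombination and Fanconi genes, 25 fell and 2 rose, with a median of -0.78. EXO1, the nuclease that resects DNA ends, was at 2.26 and 1.52 in siPARP2-B cells and 26.9 and 23.3 in siNC cells (-3.18 ± 0.12, adjusted p = 1.8e-17). BRCA1 was at 6.48 and 7.44 in siPARP2-B cells and 33.6 and 35 in siNC cells (-2.15 ± 0.09). The groups were well separated for both. BLM and BRIP1 fell (-2.47 and -2.21), whereas PALB2, RAD52, ATM, FANCL and MRE11 (MRE11A in the file) did not pass the test. Base excision and single-strand break repair, the pathways that PARP enzymes serve directly, had 5 genes higher and 9 lower of 21, where 30.9% of all genes were higher and 35.2% lower (median -0.07). The uracil glycosylase UNG was at 9.58 and 8.9 in siPARP2-B cells and 77.7 and 81.1 in siNC cells (-2.97 ± 0.07); NEIL3, FEN1 and LIG3 fell (-2.53, -2.02 and -1.08), and MUTYH rose (0.61). Without siPARP2-B replicate 2, 3 genes of this list rose.

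**Figure D4:**
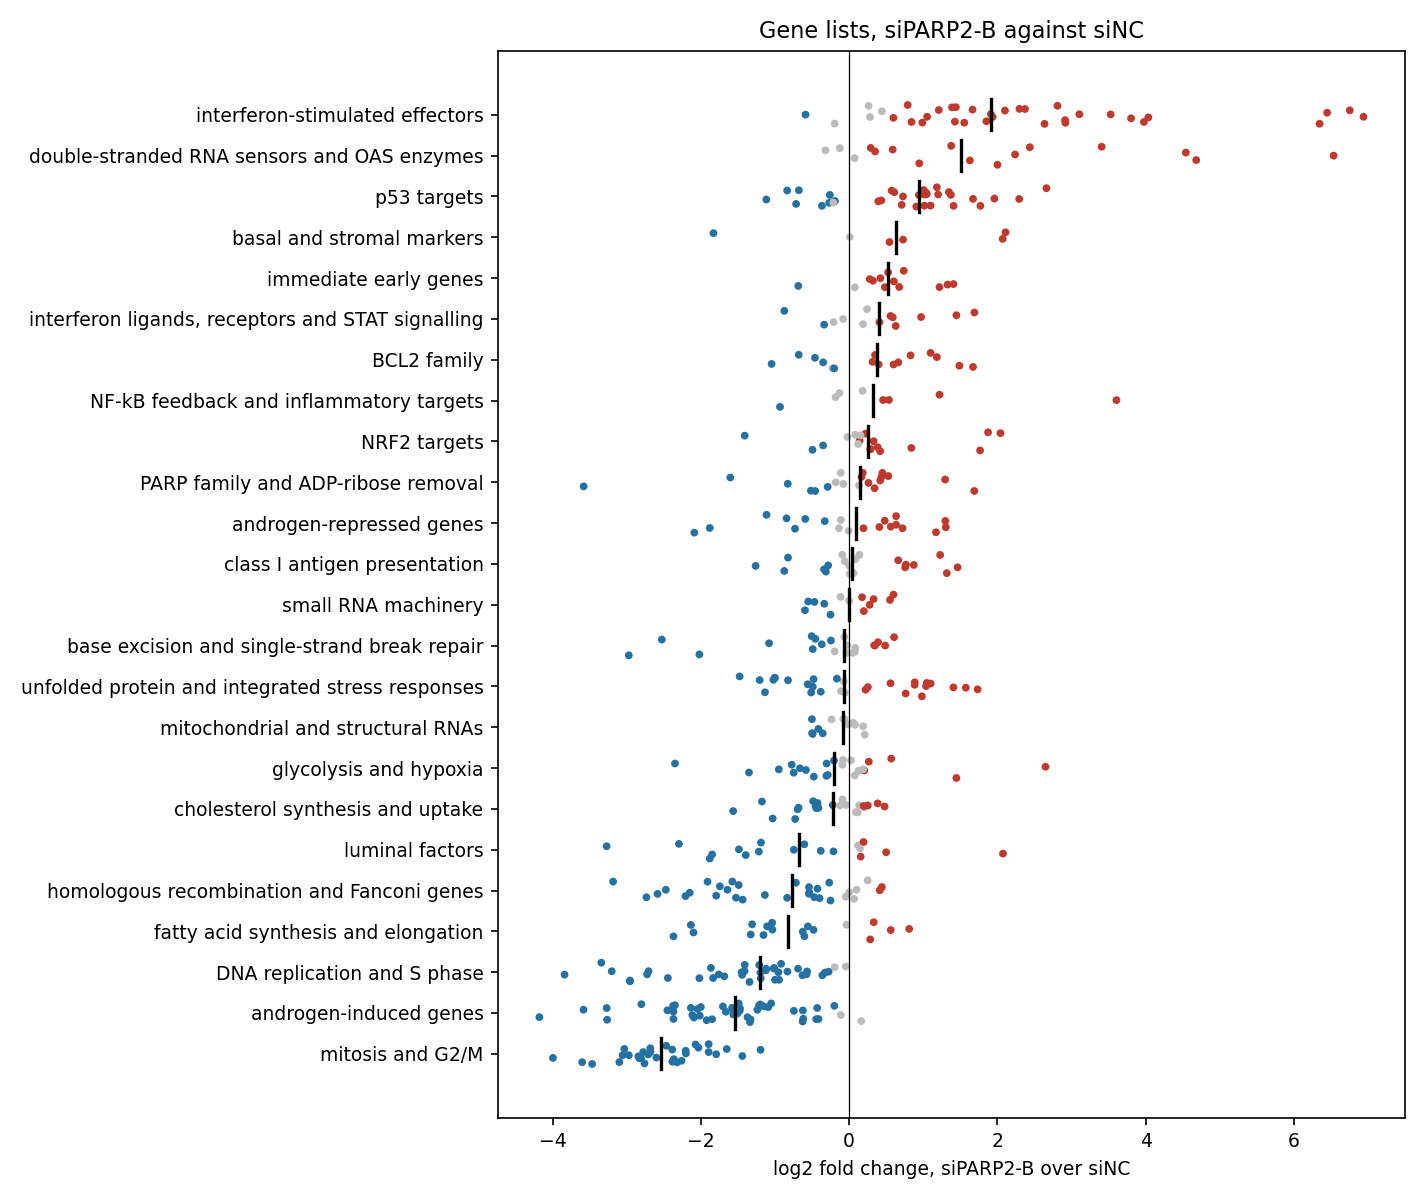
Log2 fold change of siPARP2-B over siNC (x axis) for the tested members of 24 gene lists (rows, ordered by median; black bars mark medians). Red points are called and higher, blue points called and lower, and grey points not called. Interferon-stimulated effectors have a median of 1.91 at the top, and mitosis and G2/M has one of -2.53 at the bottom with every point blue.

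Targets of p53 mostly rose, with 24 of 33 called higher and 8 lower, with a median of 0.94. CDKN1A, the gene of the cyclin-dependent kinase inhibitor p21, was at 1346 and 1389 in siPARP2-B cells, 166 and 186 in siPARP2-A, 148 and 137 in siPARP1-B, 817 and 853 in siPARP1-A and 333 and 369.6 in siNC cells (1.96 ± 0.06 over siNC, adjusted p = 9.1e-19). siPARP2-B cells were highest, siPARP1-A cells next, and the other 2 siRNAs were below siNC. The stress cytokine GDF15 was at 756 and 934 in siPARP2-B cells and 125 and 139 in siNC cells (2.66 ± 0.08). The death receptor FAS was at 25.8 and 26.7 in siPARP2-B cells and 4.87 and 4.25 in siNC cells (2.29 ± 0.12). Neither gene's groups overlapped. ACER2, PMAIP1 (NOXA) and TIGAR rose (1.77, 1.67 and 1.41); CD82 did not pass the test. The feedback ligase MDM2 fell, at 64.7 and 61.4 in siPARP2-B cells and 76.2 and 75.2 in siNC cells (-0.26 ± 0.07). In the BCL2 family, 10 of 16 rose and 5 fell, against 30.9% higher and 35.2% lower over all genes. The pro-death members BMF, BAX and BBC3 (PUMA) rose (1.49, 1.18 and 1.1), and BOK fell (-1.05). Of 13 immediate early genes 11 rose, led by ATF3, KLF4 and FOS (1.41, 1.33 and 1.22), and JUNB fell (-0.69).

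Androgen-induced genes fell, 44 of 46 with none higher, 36 of them at least 2-fold, with a median of -1.53. KLK3, which encodes prostate-specific antigen, was at 198 and 171 in siPARP2-B cells, 504 and 503 in siPARP2-A, 1165 and 1121 in siPARP1-B, 645 and 649 in siPARP1-A and 1176 and 1413 in siNC cells (-2.8 ± 0.07 over siNC, adjusted p = 8.3e-21). KLK2 was at 39.1 and 31.9 in siPARP2-B cells, 90.1 and 85.6 in siPARP2-A, 459 and 448 in siPARP1-B, 174 and 170.2 in siPARP1-A and 418 and 452 in siNC cells (-3.58 ± 0.07). For these kallikreins siPARP2-B was lowest, and siPARP2-A and siPARP1-A were also below siNC. FKBP5, a chaperone partner of steroid receptors, was at 63.7 and 59.4 in siPARP2-B cells, 307 and 294 in siPARP2-A, 932 and 965 in siPARP1-B, 599 and 577 in siPARP1-A and 1154 and 1109.7 in siNC cells (-4.18 ± 0.06). TMPRSS2, a membrane protease, was at 157 and 147 in siPARP2-B cells, 275 and 279.9 in siPARP2-A, 380.4 and 391 in siPARP1-B, 244 and 240.4 in siPARP1-A and 810.4 and 864 in siNC cells (-2.45 ± 0.05). siPARP2-B was lowest of the 5 groups for all 4 genes, as both its libraries were for 23.6% of all tested genes. Next lowest was siPARP2-A for KLK3, KLK2 and FKBP5, and siPARP1-A for TMPRSS2. EAF2 fell (-3.27); TSC22D3 and TIPARP did not pass the test.

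Luminal factors were mostly lower. FOXA1, a pioneer factor of luminal cells, was at 148 and 183 in siPARP2-B cells and 205 and 178 in siNC cells, and these groups overlapped; its log2 fold change of -0.21 ± 0.09 (adjusted p = 0.034) did not pass the threshold in the edgeR test (adjusted p = 0.052), DESeq2 (0.28) or plain reads per M (0.63), nor without siPARP2-B replicate 1 (0.59) or siNC replicate 1 (0.38). Of 18 genes for luminal identity and its cofactors, 12 fell and 4 rose, or 2 rose without siNC replicate 2. The luminal keratin KRT19, the ETS factor SPDEF and the adhesion protein CDH1 (E-cadherin) fell (-2.3, -1.85 and -1.49). ELF3, an epithelial ETS factor, rose, at 86.5 and 93.8 in siPARP2-B cells and 20.8 and 20.4 in siNC cells (2.08 ± 0.10). Of 20 androgen-repressed genes 10 rose and 7 fell, against 30.9% higher and 35.2% lower over all genes. DDC fell (-2.09) as did BCHE (-1.11), and PCDH11X, PTGER4 and UGT2B10, whose reads may be shared with close relatives, rose (1.3, 1.3 and 1.17).

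Lipid and stress pathways were mixed. Of 18 genes of fatty acid synthesis and elongation 13 fell and 4 rose (median -0.83). The elongase ELOVL7 was at 27.3 and 28.7 in siPARP2-B cells and 165 and 135 in siNC cells (-2.37 ± 0.08), and ELOVL5 at 287 and 283 in siPARP2-B cells and 1290.0 and 1220.3 in siNC cells (-2.14 ± 0.05). The desaturase FADS2, ELOVL1 and the acyl-CoA synthetase ACSL3 fell (-1.33, -1.31 and -1.16). Of 23 genes of cholesterol synthesis and uptake 12 fell and 4 rose (median -0.22), and with plain reads per M 8 rose. With the deposited scaling, 35.2% of all genes were lower and 30.9% higher. Among the cholesterol genes DHCR7, a late enzyme of the pathway, fell (-1.03), while HMGCS1, SQLE and CYP51A1 did not pass the test.

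The unfolded protein and integrated stress responses split, with 13 higher and 13 lower of 29. The endoplasmic reticulum chaperone HSP90B1 was at 614 and 595 in siPARP2-B cells and 1758 and 1613 in siNC cells (-1.48 ± 0.06), and PDIA4 and MANF fell (-1.21 and -1.14). CHAC1, which degrades glutathione, was at 34.9 and 38.8 in siPARP2-B cells and 10.5 and 10.3 in siNC cells (1.73 ± 0.10), and SLC3A2, an amino acid transporter subunit, rose (1.57). Thus chaperones were among the genes that fell and ATF4-pathway genes among those that rose, while ATF4 itself did not pass the test (-0.07). Of 18 NRF2 targets 11 rose and 3 fell, against 30.9% higher and 35.2% lower over all genes. Haem oxygenase HMOX1 was at 28.7 and 35.4 in siPARP2-B cells, 34 and 34.2 in siPARP1-A and 7.21 and 6.78 in siNC cells (2.04 ± 0.13 over siNC). AKR1C1 and AKR1C2, near-identical reductases whose reads may be split between them, rose (1.77 and 1.87), and the exporter ABCC1 fell (-1.41).

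Of 23 genes of glycolysis and hypoxia 12 fell and 5 rose, against 35.2% lower and 30.9% higher over all genes. More of them rose under plain reads per M. The oxygen-sensing hydroxylase EGLN3 was at 86.2 and 90.0 in siPARP2-B cells and 13.4 and 13 in siNC cells (2.65 ± 0.09). NDRG1, which is both hypoxia- and androgen-responsive, was at 82.3 and 80.9 in siPARP2-B cells and 413 and 428 in siNC cells (-2.35 ± 0.06). In the small RNA machinery, which an siRNA uses, 6 of 13 tested genes were higher and 5 lower, and none was called at least 2-fold changed. Over all genes, 5.30% were called at least 2-fold higher and 7.90% at least 2-fold lower. The lack of such changes among 13 genes is thus not particular to this list. AGO2, which cuts siRNA targets, was at 35.9 and 35.3 in siPARP2-B cells and 23.5 and 24.5 in siNC cells (0.55 ± 0.10), and AGO1, AGO4 and DGCR8 fell (-0.47, -0.6 and -0.55).

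The 20 genes with the highest and the 20 with the lowest fold changes that met the separation rule included several outside these groups. MAN1A1, a Golgi mannosidase, was at 139 and 145 in siPARP2-B cells, 10.2 and 11.9 in siPARP2-A and 3.25 and 3.39 in siNC cells (5.05 ± 0.12, adjusted p = 3.1e-21). The serine protease PRSS23 was at 144 and 161 in siPARP2-B cells and 5.32 and 5.28 in siNC cells (4.6 ± 0.13). SYTL2, a vesicle trafficking protein, was at 93.9 and 96.3 in siPARP2-B cells and 4.42 and 3.96 in siNC cells (4.21 ± 0.11). Both siPARP2-B libraries were the high ones for each, as the rule required. SIPA1L2, a GTPase regulator, and ITGA1, an integrin subunit, were at 106 and 107 and at 35.2 and 38.8 in siPARP2-B cells, against 5.52 and 6.6 and 1.23 and 1.95 in siNC cells. Arginase ARG1 was at 29.2 and 27.3 in siPARP2-B cells, 5.26 and 5.1 in siPARP1-A and 0.455 and 0.976 in siNC cells.

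Some of the rises started from very few reads in siNC cells. RGS2, a regulator of G protein signalling, was at 24.6 and 26.2 in siPARP2-B cells and 0.0649 and 0.230 in siNC cells, on 414 and 465 reads against 1 and 4. RAET1L, a ligand of the natural killer receptor NKG2D with close paralogs, was at 24.1 and 32.3 in siPARP2-B cells and 0.195 and 0.402 in siNC cells, on 406 and 573 reads against 3 and 7. The matrix protease MMP10 was at 16.6 and 21.1 in siPARP2-B cells and 0.195 and 0.0574 in siNC cells, on 279 and 375 reads against 3 and 1, and the keratin KRT80 at 21.5 and 23.7 in siPARP2-B cells and 0.0649 and 0.689 in siNC cells. Their siPARP2-B values are well above the floor while the siNC values are near it, so the size of the rise is imprecise. RAET1L and MMP10 were below 1 in every library of the other groups, so they passed the filter through siPARP2-B alone. The antisense RNA TM4SF18-AS1 was at 39.6 and 41.1 in siPARP2-B cells, 10.9 and 11.7 in siPARP1-A and 0.519 and 0.747 in siNC cells.

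On the lower side, PEG3, an imprinted zinc-finger gene, was at 27.8 and 26.5 in siPARP2-B cells, 545 and 515 in siPARP2-A, 562 and 646 in siPARP1-B, 261 and 251 in siPARP1-A and 558 and 529.9 in siNC cells (-4.27 ± 0.06 over siNC, adjusted p = 1.9e-25). siPARP1-A cells were at an intermediate level and the other groups were close to siNC. COLCA1 was at 22.6 and 21.5 in siPARP2-B cells, 127 and 118 in siPARP2-A, 67.1 and 72.3 in siPARP1-B, 87.1 and 84.6 in siPARP1-A and 455 and 459.7 in siNC cells (-4.32 ± 0.06), lower in all 4 PARP siRNAs and lowest in siPARP2-B. COLCA1 and TM4SF18-AS1 each overlap a gene on the opposite strand, and strand-specific counting is not stated in the sources used here, so their reads cannot be assigned to a strand. The remaining lower genes of the 20 were mainly proliferation genes. They included the mitotic kinase PBK (-3.9), DEPDC1 (-3.8), the replication licensing ligase adaptor DTL (-3.76), the condensin subunit NCAPG (-3.54), FAM111B (-3.48), the centromere chaperone HJURP (-3.46), the cell cycle factor MYBL2 (-3.43), the kinesin KIF4A (-3.36) and ZNF367 (-3.29).

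siPARP2-B was also compared directly with each other PARP siRNA in the same fit. The difference then uses no siNC library, but the same 2 siPARP2-B libraries. Against siPARP2-A, which is labelled for the same target, 8235 genes differed (64.8%), 3882 higher (30.6%) and 4353 lower (34.3%) in siPARP2-B cells. Changes of at least 2-fold were called for 746 higher (5.87%) and 830 lower genes (6.53%). With plain reads per M, 64.5% of the calls were higher in siPARP2-B, against 47.1% with the deposited scaling, and the at least 2-fold changes became 1024 higher and 578 lower. All 32 mitotic genes were at least 2-fold lower than with siPARP2-A (median -2.67, against -0.02 over all genes), as were 26 of 39 replication genes (median -1.32). Of the 35 interferon-stimulated effectors, 33 were higher and 30 of them at least 2-fold (median 2.23). Over siPARP2-A, the log2 fold change was 7.29 ± 0.12 for IFIT1, 5.34 ± 0.13 for PRSS23, -4.25 ± 0.09 for PBK and -4.24 ± 0.06 for PEG3.

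Of 46 androgen-induced genes, 26 were lower and 10 higher in siPARP2-B than in siPARP2-A cells, 8 of them at least 2-fold lower (median -0.33). KLK3, KLK2, FKBP5 and TMPRSS2 were lower than with siPARP2-A by log2 fold changes of -1.45, -1.29, -2.27 and -0.86. FOXA1, at 148 and 183 in siPARP2-B and 109.8 and 121 in siPARP2-A cells, was higher (0.51 ± 0.09, adjusted p = 1.3e-05). CDKN1A was also higher (2.96 ± 0.06), and the p53 target list had 24 of 33 genes higher and 4 lower.

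Against siPARP1-A, 8706 genes differed (68.5%), 4265 higher (33.6%) and 4441 lower (35.0%), with 818 (6.44%) and 977 (7.69%) at least 2-fold. With plain reads per M the majority turned, to 4880 higher and 3847 lower genes (55.9% higher, against 49.0% with the deposited scaling), with 964 higher and 833 lower at least 2-fold. Of 46 androgen-induced genes, 27 were lower, 14 of them at least 2-fold, and 9 higher than with siPARP1-A (median -0.52). Among the 4 comparisons the p53 target median was nearest to 0 here, with 17 genes higher and 9 lower of 33 and a median of 0.19, against -0.01 over all genes. FAS, which siPARP1-A also showed at 30.5 and 31.7, was at 25.8 and 26.7 in siPARP2-B cells (-0.24 ± 0.12, adjusted p = 0.086). TUBA1A, a tubulin with close paralogs, was at 217 and 211 in siPARP2-B and 3.51 and 2.99 in siPARP1-A cells (5.66 ± 0.08), and AP1M2, an adaptor subunit, at 197 and 228 in siPARP2-B and 3.45 and 3.44 in siPARP1-A cells (5.58 ± 0.07). In siNC cells they were at 101 and 95.9 and at 184 and 176, so the low AP1M2 values were those of siPARP1-A. NNT, the mitochondrial transhydrogenase, UNC13C and CYP7A1, a bile acid enzyme, were lower in siPARP2-B cells (-3.64, -3.51 and -3.51), and in siPARP1-A they stood above every other group. FOXM1, a driver of mitotic genes, was at 0.892 and 0.789 in siPARP2-B, 22.7 and 20.1 in siPARP1-A and 10.5 and 8.04 in siNC cells, and SKA3, a kinetochore protein, at 1.78 and 1.18 in siPARP2-B, 29.9 and 32.2 in siPARP1-A and 22.6 and 17.2 in siNC cells.

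Against siPARP1-B, 8727 genes differed (68.7%), 4313 higher (34.0%) and 4414 lower (34.8%), with 841 (6.62%) and 1082 (8.52%) at least 2-fold. Plain reads per M put 60.4% of the calls on the higher side, against 49.4% with the deposited scaling, and made the at least 2-fold changes 1061 higher and 866 lower. Here 43 of 46 androgen-induced genes were lower and none higher (median -1.48), and the p53 target list had 25 of 33 genes higher and 5 lower (median 0.9). Effectors of the interferon response were higher for 31 of 35 (median 2.14) and mitotic genes lower for 32 of 32 (median -2.67).

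**Figure D5:**
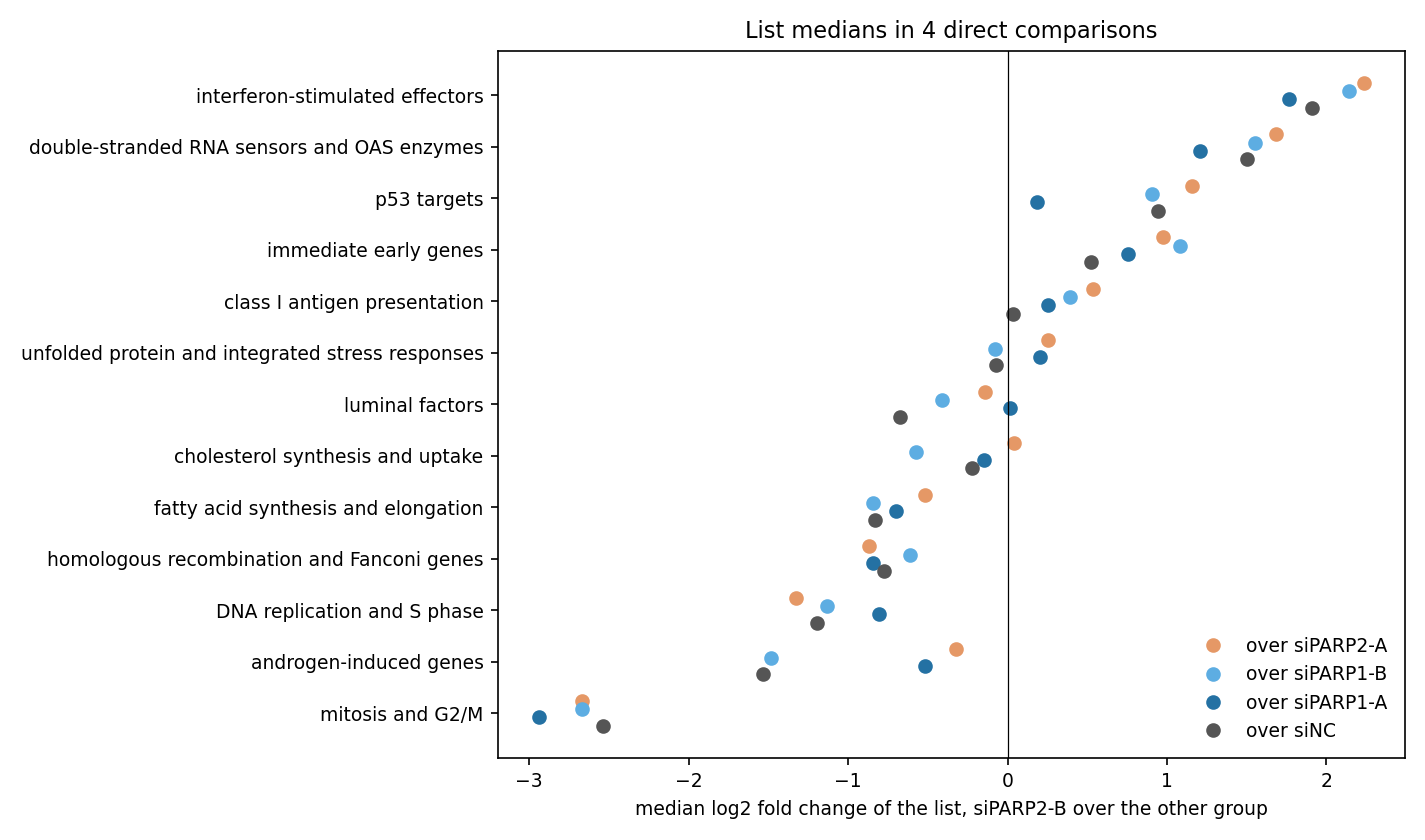
Median log2 fold change (x axis) of 13 gene lists in siPARP2-B over each other group. Point colours give the group, and the same siPARP2-B libraries enter all 4 comparisons. The mitotic medians lie between -2.94 and -2.53 and the interferon effector medians between 1.77 and 2.23 in all 4, and the androgen-induced medians are -0.33 over siPARP2-A, -0.52 over siPARP1-A, -1.48 over siPARP1-B and -1.53 over siNC.

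The 4 comparisons share the same 2 siPARP2-B libraries and are not independent of each other. In all 4, siNC included, 303 genes (2.39%) were at least 2-fold higher and 422 (3.32%) at least 2-fold lower in siPARP2-B cells. The first set held 23 of 35 interferon-stimulated effectors and 8 of 16 double-stranded RNA sensors and OAS enzymes, and the second all 32 mitotic genes, 14 of 39 replication genes and 13 of 32 homologous recombination and Fanconi genes. The second set also held 7 of 46 androgen-induced genes, and the first 4 of 33 p53 targets.

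Markers of other cell types were read beside these results. The summed value of 6 neuroendocrine markers was 17.5 to 20.2 in siPARP2-B cells and 13.3 to 15.6 in siNC cells, mostly from ENO2, and CHGB, NCAM1, SCG3 and SCGN were below the filter. The sum of 10 basal and stromal markers was 134 to 141 in siPARP2-B cells and 337 to 349 in siNC cells. Most of it was fibronectin FN1, at 97 and 87.2 in siPARP2-B cells and 324 and 336 in siNC cells (-1.83 ± 0.07), while vimentin VIM, a mesenchymal filament, was at 31.4 and 32.2 in siPARP2-B cells and 7.47 and 6.2 in siNC cells (2.07 ± 0.13) and KRT14 and KRT15 stayed under 1. COL3A1, a stromal collagen, was at 4.16 and 3.94 in siPARP2-B cells and 0.0649 and 0.287 in siNC cells. Of 3 immune and endothelial markers, the leukocyte marker PTPRC and the endothelial CLDN5 were at or near 0 in all 10 libraries, and VWF was at 8.51 and 8.23 in siPARP2-B cells and 1.56 and 2.24 in siNC cells (1.7 ± 0.16). The 7 luminal markers summed to 2363 to 2369 in siPARP2-B cells and 5488 to 5764 in siNC cells. The part of these markers in the other results was not tested.

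By gene type, 3646 of 11358 protein-coding genes were higher (32.1%) and 4121 lower (36.3%) than in siNC cells. Of 751 long non-coding RNAs 174 were higher (23.2%) and 188 lower. Of 82 transcripts of cytosolic ribosomal proteins, 6 were higher and 44 lower, with a median of -0.17, where 30.9% of all genes were higher and 35.2% lower. Ribosomal protein genes took 10.3% and 10.3% of the siPARP2-B values and 10.5% and 10.3% of the siNC values. Plain reads per M moved the median of all tested genes up by 0.15, so this small fall is read relative to the scaling. Of 13 listed mitochondrial and structural RNAs, 5 were lower and none higher (median -0.08). Of all 19 tested genes of the mitochondrial genome, 4 were higher and 5 lower (median -0.06).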

How the data were processed

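The siRNA table holds 10 LNCaP libraries (siPARP2-B, siPARP2-A, siPARP1-B, siPARP1-A and siNC, 2 each), made from total RNA with NEBNext Ultra kits, per the labels' protocols. Tools named in the submitters' processing notes are edgeR 3.12.0, HTSeq 0.6.1, TopHat2 2.1.0 and bcl2fastq 2.18, with build hg19; how the deposited table was scaled and whether counting used strand are not given in the sources used here. The authors deposited a normalised signal per gene. Each value was a whole multiple of a step specific to its library, within 0.01 of a read for 100% of values above 0, so whole reads were recovered; the steps correspond to reads per M of a scaled library size, with scale factors of 1.037 and 1.018 for siPARP2-B and 0.896 and 0.935 for siNC. No column of per-sample values was left unused.

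Genes averaging 1 or more across the 10 libraries were tested on log2(value + 1) with limma 3.58.1 in R 4.3.3 (trend, all 10 libraries in one fit, 5 residual degrees of freedom), Benjamini-Hochberg adjustment over all 12701 genes and a threshold of 0.05; ± is the standard error. The main test was also run on simulated data in which few genes changed. That setting differs from the comparison here, where 66.1% of genes were called. Alternatives were other pseudocounts, filters and scalings, edgeR 4.0.16 (8455 calls over siNC) and DESeq2 1.42.0 on the recovered reads, the 4 libraries alone, a replicate block and leaving out each library. Symbols are the deposited table's; of 3517 features with none, GENCODE names left 1776 unnamed. Named genes were PARP1, PARP2, KLK3, KLK2, TMPRSS2, FKBP5, FOXA1 and CDKN1A; the 20 highest and 20 lowest called fold changes with no overlap between groups and a mean log2(value + 1) of at least 1; up to 6 leading members per list, with all interferon and PARP members; and 8 per direction against each other PARP siRNA. A few others, MDM2, GINS2, ATF4 and members not called, were chosen after their values were seen, as were the promoters. The comparison, gene lists and tests were chosen with earlier results of these data known. Replicates are labelled biological duplicates. The p-values rest on the spread between duplicates pooled over the 5 groups, moderated by the trend over all genes with 19.0 prior degrees of freedom. Promoter sequences are RefSeq's, GRCh38.p14, matched by symbol. Some genes of the lists are not reported here by name.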

Additional observations from a re-analysis of the deposited data

Results flagged for a closer look

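siPARP2-B and siPARP2-A carry the same target label and differed in a direct test at 8235 of 12701 genes, adjusted p below 0.05 by limma. So did each of the genes given next. Log2 fold changes of siPARP2-B over siPARP2-A were -1.39 for PARP1, -0.68 for PARP2, -1.45 for KLK3, -1.29 for KLK2, -0.86 for TMPRSS2, -2.27 for FKBP5, 0.51 for FOXA1 and 2.96 for CDKN1A. PARP1 was at 160.5 and 145 normalised reads per M in siPARP2-B cells and 409 and 395 in siPARP2-A cells. CDKN1A was at 1346 and 1389 in siPARP2-B cells and 166 and 186 in siPARP2-A cells. The part of the lower PARP1 level in the other differences was not tested.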

How the results depend on the processing

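With 2 libraries a group, leaving out 1 library left 7613 to 8354 genes called for siPARP2-B over siNC, against 8390 with all, and the lone library was then assumed to vary like the other groups. The counts were 8455 with edgeR, 7446 with DESeq2 and 8105 with only the 4 libraries of the comparison. Replicate numbers did not pair the libraries: over 10 pairs the correlation of same-numbered deviations ran from -0.141 to 0.115, with 1 over 0.1. With the replicate number as a block, 8324 genes were called. The count of genes at least 2-fold higher was smaller under a pseudocount of 4, at 401 over siNC, 459 over siPARP2-A, 522 over siPARP1-A and 525 over siPARP1-B, and under a minimum mean of 5, which tests fewer genes, at 436 over siNC and 491 over siPARP2-A. Plain reads per M gave 5472 higher and 3013 lower genes over siPARP2-A and shifted that median by 0.17. Under plain reads per M, list counts over siNC became 8 higher for base excision repair and for glycolysis and hypoxia, 5 lower for p53 targets, and 3 lower for the BCL2 family and for small RNA machinery. With a minimum mean of 5, which leaves fewer effectors tested, 19 interferon-stimulated effectors were higher. Of 295 single-gene results, 268 stayed called, or stayed not called, under every alternative in which the gene was tested. A call was lost in at least 1 alternative for 17 and gained in at least 1 for 10, and none changed sign while called. Calls over siNC lost somewhere were those of ACTA2, AGO3, COL1A1, EIF2AK2, ENO2, FOXA1, IFNGR1, MACROD1, MACROD2, MALAT1, MT-RNR1, MT-RNR2, PARP14, PARP9, RELB and TNFAIP3, and FOXA1 also lost its call over siPARP1-B. The cause was not tested. Depth limits genes with few reads in siNC cells, where 3 reads make 0.17 to 0.19 normalised reads per M.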
